A study of Homo sapiens with 24 samples.

Results

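ZFP36, ZFP36L1, ZFP36L2, BTG1, BTG2, IER2, IER3, IER5, TRIB1 and MCL1 are 10 genes that control mRNA decay or are themselves early, short-lived messages. They were taken by symbol from a raw count table of 26645 gene entries, each symbol matched 1 entry, and all 10 passed the filter that left 14741 genes for testing. The cells are MDA-MB-468 (MB468), a triple-negative breast cancer line that needs methionine (Met) to grow, and MDA-MB-468res-R8 (R8), a clone derived from it that grows when homocysteine (Hcy) replaces Met. The 0 h cells of each line were in Met+ media with 100 μM L-methionine, and the other cells were collected 0.5, 2 or 12 h after a switch to Met-Hcy+ media, which has no Met and 370 μM DL-homocysteine. There are 8 groups of 3 poly(A) RNA-seq libraries, 24 in all. R8 is a single selected clone, so a difference between the lines belongs to this pair. No library comes from a change to fresh Met+ media, so the change of media and the exchange of Met for Hcy cannot be told apart.

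The list was drawn up with results of these data known, and it was selected on measured counts: it names ZFP36L1 and TRIB1 as genes that rise. The recorded rise of ZFP36L1 was in MB468 cells at 2 h, so for all 10 genes the MB468 2 h response and the difference between the lines at 2 h are given here as a description, without a test. The responses of ZFP36L1 and TRIB1 at every time are a description for the same reason. The remaining values were tested in edgeR (quasi-likelihood), with p-values adjusted by Benjamini and Hochberg's method over the 14741 genes, and "called" means an adjusted p under 0.05. The 3 times of a line share their 0 h libraries, so those comparisons are not independent of each other.

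ZFP36 (tristetraprolin), ZFP36L1 and ZFP36L2 are zinc-finger proteins that bind AU-rich elements in 3′ untranslated regions and bring the CCR4-NOT deadenylase to the message, which is then degraded. BTG1 and BTG2 are antiproliferative proteins that bind the CNOT7 and CNOT8 deadenylases and speed the loss of poly(A) tails. IER2, IER3 and IER5 are immediate early response genes, induced by growth factors and stress without the need for new protein synthesis. TRIB1 is a pseudokinase that brings C/EBPα to the ubiquitin ligase COP1, and MCL1 is a short-lived antiapoptotic protein of the BCL2 family. In epithelial cells such messages usually appear within the first hour after serum, growth factors or stress, and many of them carry AU-rich elements, so they are also substrates of the ZFP36 proteins.

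The genes are short. In GENCODE v44 (GRCh38) ZFP36 lies at chr19:39406847-39409412 and IER2 at chr19:13150411-13154911, both on the plus strand, and ZFP36L1 lies at chr14:68787660-68796253 on the minus strand. ZFP36L2 lies at chr2:43222402-43226606, BTG1 at chr12:92140278-92145846, IER3 at chr6:30743199-30744548 and MCL1 at chr1:150560895-150579738, all on the minus strand. BTG2 lies at chr1:203305491-203309602 and IER5 at chr1:181088700-181092900 on the plus strand. All 10 representative (MANE Select) transcripts have at most 3 exons, against 12.3% of the 12504 transcripts of tested genes, and their median span on the genome is 4353 bases against 28777. BTG1 overlaps the counted gene LINC01619, and MCL1 overlaps ADAMTSL4 and ADAMTSL4-AS1. These are overlaps of whole annotated genes, and whether their exons overlap was not checked. The library kit does not mark strand, so reads in an exon that both genes cover could not be given to 1 gene.

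The promoter sequences that were available were searched for short motifs just before their starts. RefSeq (GRCh38.p14) held promoters for 6 of the 10 genes, 7 starts in all, because ZFP36L1 has a pair of starts; none is shown for ZFP36L2, IER3, TRIB1 or MCL1. The 250 bases before each start were searched on both strands for the cAMP response element (CRE, TGACGTCA), its core (TGACG, which also lies inside every full CRE), the AP-1 site (TGANTCA), the TATA box (TATAAA) and the serum response factor's CArG box. The core was present in 5 of the 7 promoters, both starts of ZFP36L1 among them, against 21.2% of 35114 promoters of the same length. The full CRE was present in 1 of 7, against 1.65%. The TATA box was present in 1 of 7 (10.7% of all), while the AP-1 site (6.57% of all) and the CArG box (1.16% of all) had no match in these windows. The sequences shown are those of 3 genes with a large response at 0.5 h, ZFP36, ZFP36L1 and IER2, and of BTG1, with a small response. Capitals mark a CRE, a core on either strand or a TATA box.
ZFP36, chr19:39406597-39406846, plus strand: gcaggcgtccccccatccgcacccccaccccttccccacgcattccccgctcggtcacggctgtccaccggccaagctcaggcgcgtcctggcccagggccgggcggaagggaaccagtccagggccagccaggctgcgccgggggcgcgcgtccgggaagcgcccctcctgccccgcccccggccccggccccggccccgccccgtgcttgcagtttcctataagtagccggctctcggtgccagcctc
ZFP36L1, chr14:68793417-68793666, minus strand: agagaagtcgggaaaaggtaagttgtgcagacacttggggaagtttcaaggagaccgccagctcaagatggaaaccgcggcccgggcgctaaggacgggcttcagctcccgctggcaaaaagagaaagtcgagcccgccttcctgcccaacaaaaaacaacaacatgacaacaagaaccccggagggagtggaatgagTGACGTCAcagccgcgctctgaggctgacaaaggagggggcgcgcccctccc
IER2, chr19:13150161-13150410, plus strand: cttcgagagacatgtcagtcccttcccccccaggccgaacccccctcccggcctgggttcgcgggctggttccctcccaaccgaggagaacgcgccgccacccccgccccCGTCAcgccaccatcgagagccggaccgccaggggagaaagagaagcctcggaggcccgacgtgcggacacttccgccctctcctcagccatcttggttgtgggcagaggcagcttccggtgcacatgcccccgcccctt
BTG1, chr12:92145847-92146096, minus strand: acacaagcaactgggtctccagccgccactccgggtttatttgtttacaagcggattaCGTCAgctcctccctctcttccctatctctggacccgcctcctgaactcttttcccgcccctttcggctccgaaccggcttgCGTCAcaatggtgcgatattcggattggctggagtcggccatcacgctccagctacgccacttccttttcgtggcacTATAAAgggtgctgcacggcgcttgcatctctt
The CRE of ZFP36L1 begins 52 bases before the start. IER2 has a core 140 bases before its start, and BTG1 has cores at 192 and 110 bases and a TATA box at 33 bases. ZFP36, among the largest responders at 0.5 h, has none of the searched letters in this window. A link between these letters and the responses was not tested. A match of letters is a description and does not show that a factor binds there.

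The 3′ untranslated regions carry the letters that ZFP36 proteins recognise in unequal numbers. The AU-rich pentamer ATTTA occurred 10 times in IER5 and in MCL1, 8 times in ZFP36L1, 6 times in IER3 and 5 times in each of ZFP36, ZFP36L2 and BTG1. It occurred 2 times in BTG2, once in TRIB1 and not at all in IER2. The nonamer TTATTTATT, which holds the pentamer, was present in ZFP36, ZFP36L1, ZFP36L2 and IER5, 4 of the 10 genes, against 9.46% of the 12504 transcripts. Per kilobase the members had a median of 2.96 pentamers, against 1.69 over all these transcripts. IER2 and TRIB1, with none and 1, were among the genes with the largest responses at 0.5 h. Whether the pentamers bear on the responses was not tested.

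The libraries held between 11713037 and 36402932 counts in genes (median 20452797), and spike-in transcripts took 0.201 to 0.303% of counts. Libraries of the same group differed by more than sampling noise, so none was taken as a duplicate. The labels do not say that the libraries of a group came from separate cultures, so p-values measure the spread between these libraries. Of 13 epithelial markers of the line, 12 had at least 10 counts in every library (KRT6A had 5 to 1069), and PGR had 0 to 2 counts, while ESR1 had 83 to 598 and ERBB2 766 to 3297. Of 11 markers of other cell types, 6 had at most 10 counts in every library and SNAP25 had 0, with COL1A1 (313 to 2379 counts) and CD68 (41 to 255) the highest. The summed level of the 11 markers ran from 38.8 to 40.3 CPM (counts scaled to the library's total) in MB468 at 0 h and from 61.6 to 82.5 CPM in R8 at 0 h, and at 12 h from 20.9 to 22.3 CPM and from 41.0 to 50.8 CPM. Its part in the results was not tested. In MB468 at 2 h, replicate 2 held 8251 counts of RN7SK, against a median of 84 in the other 23 libraries. In bulk libraries such as these, a change in every cell and a change in a share of the cells cannot be told apart.

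In Met+ media the 10 genes covered a wide range of levels. On the scale of CPM per kilobase of transcript, MCL1 was the highest in MB468 cells (117 ± 5.37, SD, n = 3), followed by ZFP36L1 (70.0 ± 2.44) and IER2 (60.0 ± 5.33). ZFP36L2 (48.2 ± 1.80) and BTG1 (46.0 ± 1.91) came next and did not differ beyond their spread. IER5 stood at 31.0 ± 1.45, ZFP36 at 14.7 ± 1.58 and TRIB1 at 13.3 ± 0.432, the last pair again within its spread. BTG2 (1.56 ± 0.140) and IER3 (1.19 ± 0.107) were far lower. R8 cells kept MCL1 first (93.7 ± 4.44) and BTG2 (1.23 ± 0.281) and IER3 (1.30 ± 0.511) last, but IER2 (80.2 ± 3.14) stood above ZFP36L1 (71.2 ± 4.82) there.

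**Figure D1:**
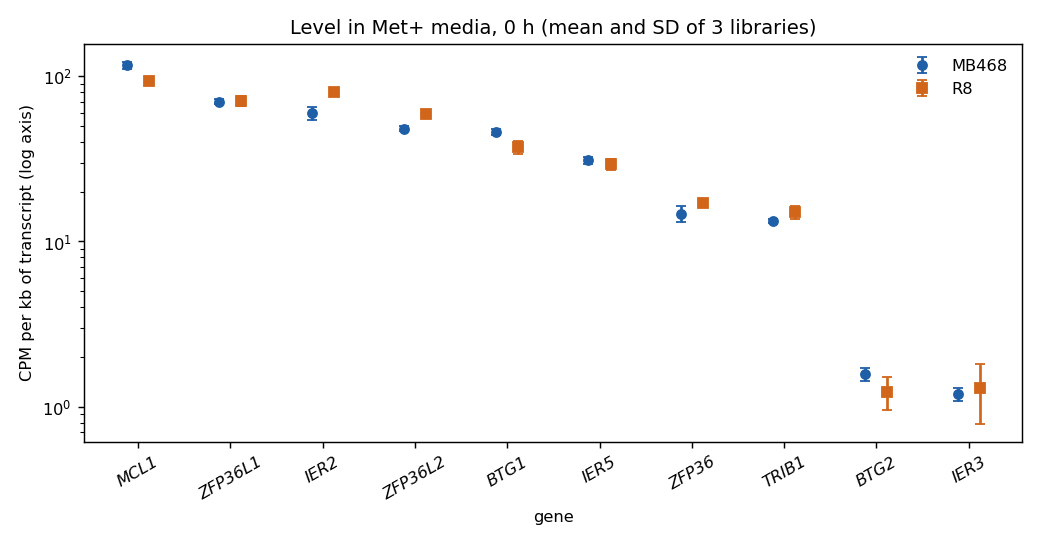
Level of each gene in Met+ media at 0 h, in CPM per kilobase of transcript on a log axis, for MB468 (circles) and R8 (squares), with the mean and SD of 3 libraries. MCL1 was highest in both lines, and BTG2 and IER3 were the lowest at 1.19 to 1.56 in MB468 and 1.23 to 1.30 in R8.

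Between the lines at 0 h, 4 of the 10 genes were called higher in R8 (26.4% of all genes tested were) and 2 were called lower (27.1%), so the members were near the background. The decay factor ZFP36L2 was higher in R8, with 4954, 4972 and 4942 normalized counts against 4201, 3898 and 4050 in MB468 (log2 fold change 0.29, 95% confidence interval 0.19 to 0.39, adjusted p = 3.40e-06). IER2 was also higher, by 0.42 on the log2 scale (0.23 to 0.61, adjusted p = 0.000561), as were ZFP36 (0.21, adjusted p = 0.0109) and TRIB1 (0.17, adjusted p = 0.00529). MCL1 and BTG1 were lower in R8, by -0.32 (-0.40 to -0.23, adjusted p = 3.21e-08) and -0.30 (-0.40 to -0.20, adjusted p = 1.51e-06). When libraries were scaled by their spike-in totals, the all-gene median moved to -0.31, the differences of ZFP36 (-0.10), ZFP36L2 (-0.020) and TRIB1 (-0.14) changed sign, and IER2 was no longer called (0.11). None of the 10 was then called higher in R8 and 5 were called lower: MCL1 and BTG1, with BTG2 (-0.68), IER5 (-0.39) and ZFP36L1 (-0.29) added. The share of all genes called with this scaling was not counted, so nothing is read from these counts. The call on ZFP36 was also lost without MB468 0 h replicate 2 (0.14) or replicate 3 (0.17).

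Of the 10 genes, 8 in MB468 and 9 in R8 were called higher 0.5 h after the switch than at 0 h. Of all genes tested, 17.6% and 17.4% were. Without ZFP36L1 and TRIB1, which the list names for their rise, the counts were 6 of 8 and 7 of 8. By 2 h the log2 fold changes of ZFP36, ZFP36L1, IER2 and TRIB1 ran from -0.69 to 0.10 in R8, against 1.23 to 1.54 in MB468. IER5 and MCL1 were above 0 h in both lines at 2 h (MCL1 in MB468 not with spike-in scaling). The plot of counts by time shows each library.

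**Figure D2:**
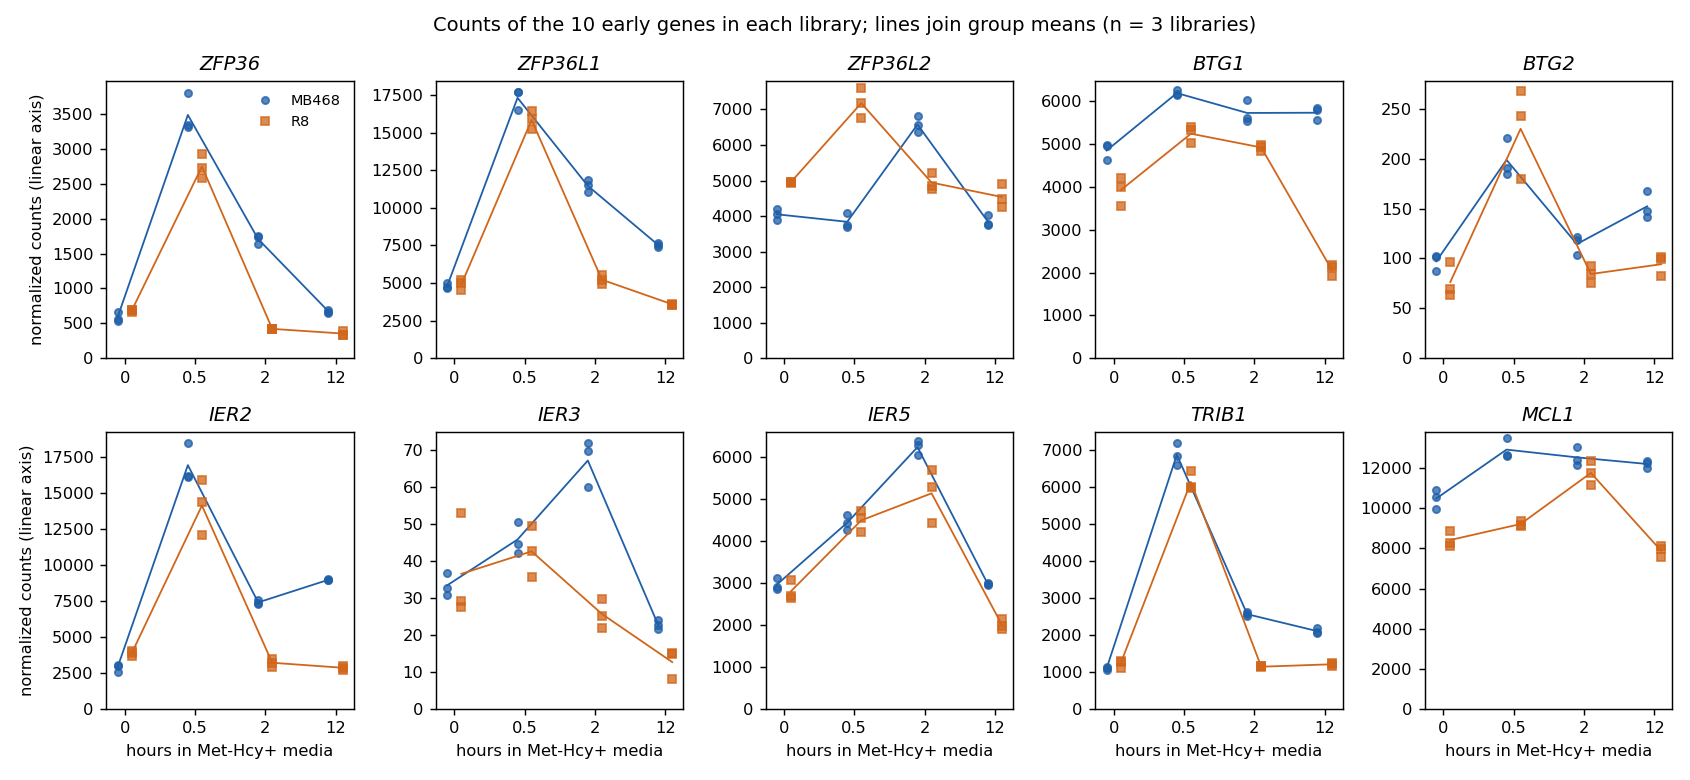
Normalized counts of the 10 genes in each library (linear axis from 0) against hours in Met-Hcy+ media, with MB468 as circles, R8 as squares and lines through the means of 3 libraries. ZFP36, ZFP36L1, IER2 and TRIB1 peaked at 0.5 h in both lines and were lower in R8 than in MB468 at 2 and 12 h. The mean of IER5 was highest at 2 h in both, though its R8 libraries at 0.5 and 2 h overlapped.

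ZFP36, the founding member of the decay factors, was among the genes with the largest rise. In MB468 cells it had 657, 537 and 564 normalized counts at 0 h and 3318, 3345 and 3801 at 0.5 h, a 5.92-fold rise (log2 fold change 2.57, 2.44 to 2.70, adjusted p = 5.12e-30) that ranked 29th of 14741 genes. In R8 cells it went from 655, 690 and 692 to 2723, 2590 and 2931, a 4.06-fold rise (2.02, 1.89 to 2.15, adjusted p = 2.05e-26). The groups did not overlap in either line, and the rise in R8 was smaller by 0.55 on the log2 scale (the difference R8 minus MB468 was -0.55, -0.73 to -0.37, adjusted p = 7.78e-05). At 2 h the lines parted: MB468 libraries held 1755, 1731 and 1636 counts, a log2 fold change of 1.54 given as a description, while R8 libraries held 414, 423 and 423. The R8 values were all under their own 0 h values (-0.69, -0.84 to -0.54, adjusted p = 4.52e-09). At 12 h MB468 stood at 693, 664 and 652 counts, higher than at 0 h (0.19, 0.06 to 0.33, adjusted p = 0.0107) but reversed under spike-in scaling (-0.048), where the all-gene median moved to -0.23. That call was lost without MB468 0 h replicate 2 (0.12) or 3 (0.15) or MB468 12 h replicate 1 (0.16). R8 at 12 h stood at 383, 338 and 338 counts, lower than at 0 h (-0.94, -1.09 to -0.79, adjusted p = 3.93e-14), and the lines differed by -1.13 (-1.33 to -0.93, adjusted p = 1.22e-12).

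ZFP36L1, the decay factor with the highest level per kilobase at 0 h, is described without a test. In MB468 cells it had 4999, 4729 and 4692 counts at 0 h, 17706, 16527 and 17729 at 0.5 h, 11821, 11505 and 11063 at 2 h and 7398, 7520 and 7676 at 12 h. Every MB468 library in Met-Hcy+ media stood above every MB468 library at 0 h. In R8 cells it had 4526, 5173 and 4970 counts at 0 h, 16412, 15213 and 15929 at 0.5 h, 5203, 5530 and 4921 at 2 h and 3559, 3629 and 3561 at 12 h. R8 thus reached a similar peak, overlapped its 0 h values at 2 h and lay below them at 12 h. The log2 fold changes at 0.5, 2 and 12 h were 1.85, 1.25 and 0.65 in MB468 and 1.70, 0.10 and -0.45 in R8.

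ZFP36L2 followed another course. In R8 cells it rose at 0.5 h from 4954, 4972 and 4942 to 7179, 6754 and 7605 counts (0.53, 0.44 to 0.63, adjusted p = 8.14e-12). In MB468 cells it was not called at 0.5 h (4078, 3750 and 3688 counts, -0.07, -0.17 to 0.03, adjusted p = 0.28) and stood at 6356, 6568 and 6809 counts at 2 h (0.70, a description). The R8 response exceeded the MB468 response at 0.5 h by 0.61 (0.47 to 0.75, adjusted p = 9.67e-08), the only 1 of the 10 genes called in this direction. The plot of counts by time shows the maximum of ZFP36L2 at 0.5 h in R8 and at 2 h in MB468. At 12 h the gene was not called in MB468 (-0.07, adjusted p = 0.171) and was lower in R8 (-0.13, -0.23 to -0.03, adjusted p = 0.023). The 12 h call in R8 was lost without R8 0 h replicate 1 (-0.11), R8 12 h replicate 1 (-0.06) or R8 12 h replicate 2 (-0.12), and with spike-in scaling (-0.10).

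BTG1, an adaptor of the deadenylases, rose little at 0.5 h, and its response differed between the lines at 12 h. It went from 4617, 4974 and 4954 to 6164, 6254 and 6152 counts in MB468 at 0.5 h (0.35, 0.26 to 0.45, adjusted p = 1.37e-07) and from 4209, 4002 and 3553 to 5317, 5388 and 5019 in R8 (0.42, 0.32 to 0.51, adjusted p = 4.33e-09). The difference between these responses was 0.06 with an interval of -0.08 to 0.20. With spike-in scaling the MB468 value at 0.5 h was 0.14 and was not called. At 2 h BTG1 was still higher than at 0 h in R8 (0.32, 0.23 to 0.42, adjusted p = 9.81e-06), a call lost with spike-in scaling (0.28), and its MB468 value was 0.24 (-0.18 with spike-in scaling). At 12 h MB468 kept 5786, 5852 and 5556 counts (0.24, adjusted p = 2.51e-05), whereas R8 fell to 1915, 2137 and 2168 (-0.92, -1.03 to -0.82, adjusted p = 9.72e-19). No R8 library at 12 h reached the lowest of the R8 0 h libraries, and the line difference was -1.16 (-1.31 to -1.02, adjusted p = 2.08e-17). With spike-in scaling the MB468 value at 12 h was 0.01 and was not called.

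BTG2, a p53 target that acts as BTG1 does, was present at a low level. It rose at 0.5 h from 101, 103 and 87.1 to 191, 184 and 221 counts in MB468 (1.01, 0.71 to 1.31, adjusted p = 6.33e-07) and from 63.4, 96.2 and 69.3 to 268, 243 and 179 counts in R8 (1.61, 1.30 to 1.92, adjusted p = 1.95e-11). The groups did not overlap in either line. The R8 response was larger by 0.60 (0.17 to 1.03) but was not called as different (adjusted p = 0.155). It was called without R8 0 h replicate 2 (0.80, adjusted p = 0.0385) or R8 0.5 h replicate 3 (0.76, adjusted p = 0.0326). At 12 h BTG2 was again higher in MB468 (0.64, 0.35 to 0.94, adjusted p = 0.000182), a call lost with spike-in scaling (0.40), and was not called in R8 (0.31, -0.02 to 0.64, adjusted p = 0.0967). The R8 value was called without R8 0 h replicate 2 (0.51, adjusted p = 0.0141) or R8 12 h replicate 3 (0.43, adjusted p = 0.0403).

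IER2, a nuclear protein of the immediate early class, had the largest lasting difference between the lines. In MB468 cells it went from 3004, 2587 and 3052 counts at 0 h to 16195, 16138 and 18466 at 0.5 h, a 5.89-fold rise (2.56, 2.37 to 2.75, adjusted p = 4.55e-14). In R8 cells it went from 3696, 3997 and 3856 to 12112, 14394 and 15874, a 3.67-fold rise (1.88, 1.69 to 2.06, adjusted p = 2.93e-12). The R8 rise was smaller by 0.68 (-0.68, -0.94 to -0.43, adjusted p = 0.00256), a call that was lost when only the 4 groups compared were fitted (-0.67, adjusted p = 0.0704). IER2 stood at 7259, 7357 and 7565 counts in MB468 at 2 h and at 3206, 3453 and 2939 in R8. The R8 value was not called against 0 h (-0.26, -0.45 to -0.08, adjusted p = 0.13), but it was called without the filter on low counts (adjusted p = 1.46e-06), with DESeq2 (-0.27, adjusted p = 0.0406) and with only the groups compared (-0.27, adjusted p = 0.00122). At 12 h MB468 held 8931, 9001 and 8967 counts, higher than at 0 h (1.64, 1.46 to 1.83, adjusted p = 3.66e-12), and R8 held 3006, 2707 and 2842, lower than at 0 h (-0.43, -0.62 to -0.24, adjusted p = 0.000361). The line difference of -2.07 (-2.33 to -1.81, adjusted p = 5.21e-11) was the largest among the 10 genes at 12 h.

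IER3, known for its part in survival signalling downstream of NF-κB and ERK, was counted too rarely for a firm statement. Its libraries held 30.9 to 36.8 normalized counts in MB468 and 27.5 to 53.1 in R8 at 0 h, and it was not called at 0.5 h in MB468 (0.46, -0.05 to 0.98, adjusted p = 0.167) or R8 (0.18, -0.33 to 0.69, adjusted p = 0.631). MB468 libraries at 2 h held 60.1 to 71.9 counts (0.99, a description), all above those at 0 h, while R8 libraries held at most 29.9 and overlapped with 0 h. At 12 h it was lower than at 0 h in R8, with 8.05 to 15.1 counts (-1.58, -2.17 to -0.98, adjusted p = 1.25e-05), and was not called in MB468 (-0.55, -1.08 to -0.03, adjusted p = 0.0567). The MB468 value was called with DESeq2 size factors (-0.58), with only the groups compared (-0.57), with spike-in scaling (-0.81) and without MB468 0 h replicate 3 (-0.62). The line difference at 12 h (-1.02, adjusted p = 0.0257) was lost without R8 0 h replicate 1 (-0.57), R8 12 h replicate 1 (-0.72), MB468 12 h replicate 3 (-0.97) or MB468 0 h replicate 3 (-0.93), and with spike-in scaling (-0.74). IER3 lies in the major histocompatibility region, which genome references can hold in alternative copies; whether the authors' reference did is not given in the sources used here.

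IER5, a regulator of heat shock factor 1 and of protein phosphatase 2A, had its highest group mean later than IER2. It rose at 0.5 h by 0.59 in MB468 (0.44 to 0.73, adjusted p = 4.90e-07) and by 0.68 in R8 (0.53 to 0.83, adjusted p = 4.52e-08), and the difference between the lines was 0.09 with an interval of -0.11 to 0.30. At 2 h IER5 stood at 5299, 5693 and 4437 counts in R8 against 2656, 3066 and 2695 at 0 h (0.88, 0.73 to 1.03, adjusted p = 8.42e-09). The R8 libraries at 0.5 h held 4219, 4551 and 4723 counts, so those groups overlapped, and 2 h was not tested against 0.5 h. MB468 libraries at 2 h held 6390, 6047 and 6302 counts against 2904, 2868 and 3124 at 0 h (1.08, a description), so IER5 was the member whose 2 h rise was large in R8 as well. At 12 h it was back at 2991, 2962 and 2979 counts in MB468 (0.01, -0.14 to 0.15) and below the 0 h libraries in R8 (1966, 1895 and 2155 counts, -0.48, -0.63 to -0.33, adjusted p = 4.77e-06). The lines differed at 12 h by -0.49 (-0.70 to -0.28, adjusted p = 0.000242), a call lost with spike-in scaling (-0.23).

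TRIB1 is described without a test of its response. It had 1096, 1123 and 1053 counts in MB468 at 0 h and 6843, 6602 and 7198 at 0.5 h, and 1278, 1301 and 1107 in R8 at 0 h and 6427, 5987 and 6019 at 0.5 h. With log2 fold changes of 2.65 and 2.32 it ranked 25th of 14741 genes in MB468 and 31st in R8, the highest rank of the 10 genes in each line. MB468 kept 2618, 2510 and 2559 counts at 2 h and 2041, 2070 and 2196 at 12 h. R8 was back within its 0 h range at both times, with 1146, 1151 and 1120 counts at 2 h and 1166, 1242 and 1208 at 12 h.

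MCL1, the antiapoptotic member, moved least. It rose at 0.5 h from 9976, 10564 and 10932 to 13529, 12622 and 12644 counts in MB468 (0.30, 0.22 to 0.39, adjusted p = 1.70e-07), a call lost with spike-in scaling (0.09). In R8 the rise was 0.13 (0.05 to 0.22, adjusted p = 0.0138), and this call was lost without R8 0 h replicate 1 (0.10), R8 0 h replicate 2 (0.12) or R8 0.5 h replicate 3 (0.12), and with spike-in scaling (0.17). R8 reached its maximum at 2 h, with 11773, 12363 and 11170 counts against 8112, 8280 and 8872 at 0 h (0.48, 0.40 to 0.57, adjusted p = 5.58e-11). The MB468 value at 2 h was 0.26 (-0.16 with spike-in scaling, where the all-gene median moved to -0.42). At 12 h MCL1 was higher in MB468 (0.22, 0.14 to 0.30, adjusted p = 1.27e-05, reversed to -0.015 with spike-in scaling). It was not called in R8 at 12 h (-0.09, -0.18 to -0.01, adjusted p = 0.0512). The R8 value was called without R8 0 h replicate 2 (-0.11, adjusted p = 0.0486) and with at least 10 counts required in every library (-0.11, adjusted p = 0.0194). The line difference at 12 h was -0.32 (-0.44 to -0.19, adjusted p = 1.87e-05) and -0.06, not called, with spike-in scaling.

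**Figure D3:**
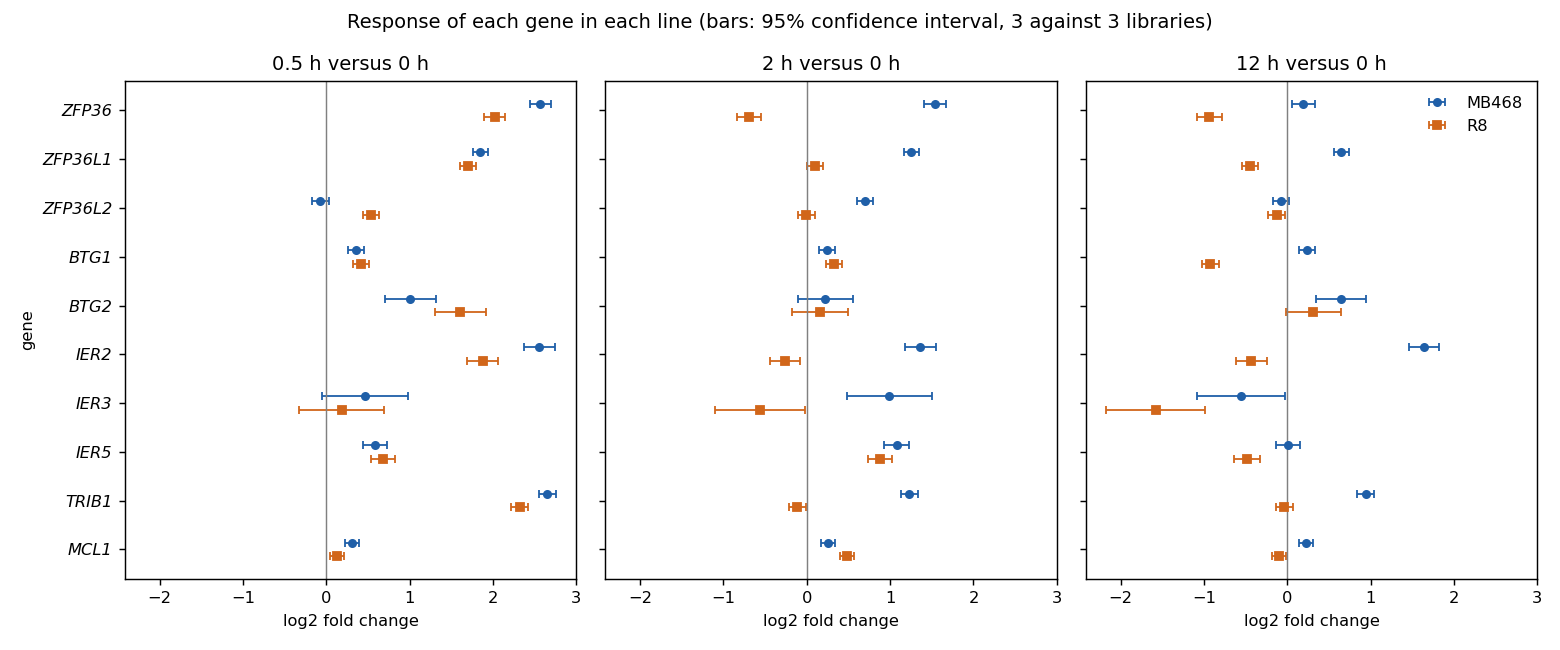
Log2 fold change of each gene against the 0 h libraries of its own line at 0.5, 2 and 12 h, with 95% confidence intervals, for MB468 (circles) and R8 (squares). ZFP36, ZFP36L1, IER2 and TRIB1 lay between 1.70 and 2.65 at 0.5 h, and at 2 h they lay between 1.23 and 1.54 in MB468 and between -0.69 and 0.10 in R8. Spike-in scaling reversed BTG1 and MCL1 in MB468 at 2 h and ZFP36 and MCL1 in MB468 at 12 h.

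Counted together, 8 of the 10 genes were called higher at 0.5 h in MB468, against 17.6% of all genes tested, and none was called lower (16.4% of all genes). In R8 9 were called higher (17.4%) and none lower (16.3%). All 10 had a median log2 fold change of 0.80 in MB468 and 1.15 in R8, against 0.01 and 0.00 over all genes. Without ZFP36L1 and TRIB1, which the list names for their rise, the counts were 6 of 8 and 7 of 8 and the medians 0.52 and 0.61. At 2 h in R8 BTG1, IER5 and MCL1 were called higher, 3 of 10 against 2.52% of all genes, and ZFP36 was called lower, against 1.85%. In MB468 at 2 h, the comparison that helped to choose the genes, 9 of 10 passed the threshold upward and none downward, where 8.88% and 7.47% of all genes did; nothing is read from that count. At 12 h 7 of 10 were called higher and none lower in MB468 (36.1% and 34.7% of all genes), and none was called higher and 7 lower in R8 (30.2% and 31.1%). Without ZFP36L1 and TRIB1 the counts were 5 of 8 higher in MB468 and 6 of 8 lower in R8. With spike-in scaling 6 of the 10 were called higher at 0.5 h in MB468 and 8 in R8. The same scaling gave 2 higher and 1 lower in R8 at 2 h. At 12 h it gave 3 of the 10 higher and 2 lower (ZFP36L2, -0.31, and IER3, -0.81) in MB468, and 6 lower in R8. The share of all genes called with that scaling was not counted, so these counts have no background beside them. Where the edgeR count in a direction was 0 in these comparisons with 0 h, IER3 in MB468 at 12 h was the 1 gene with an unadjusted p under 0.05 in that direction. DESeq2's test called none in those directions, but in MB468 at 12 h IER3 was called lower with DESeq2 size factors, and IER3 and ZFP36L2 (-0.09, adjusted p = 0.0276) with only the groups compared.

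The responses of the lines were also compared directly. Without ZFP36L1 and TRIB1, the R8 response at 0.5 h was called smaller for 2 of 8 genes (ZFP36 and IER2), against 1.7% of all genes. It was called larger for 1 of 8 (ZFP36L2), against 1.2%. TRIB1, described only, also passed the threshold below 0 (-0.34), which makes 3 of all 10 genes. With spike-in scaling, which moved the median of all genes by 0.26, ZFP36L2 alone stayed called. ZFP36 (-0.28) and IER2 (-0.43) were not called there. At 2 h, described only, the difference ran from -2.23 for ZFP36 to 0.23 for MCL1. It passed the threshold below 0 for 6 of 10 genes (2.88% of all genes) and above 0 for 1 (2.19%), and nothing is read from these counts because the comparison holds the response that chose the genes. At 12 h it was called negative for 8 of 10 genes (30.3% of all genes) and positive for none (26.2%). The exceptions at 12 h were ZFP36L2 (-0.05, -0.19 to 0.09) and BTG2 (-0.33, -0.78 to 0.12). Without ZFP36L1 and TRIB1 the count was 6 of 8 and the median difference -0.76, against -0.05 over all genes.

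**Figure D4:**
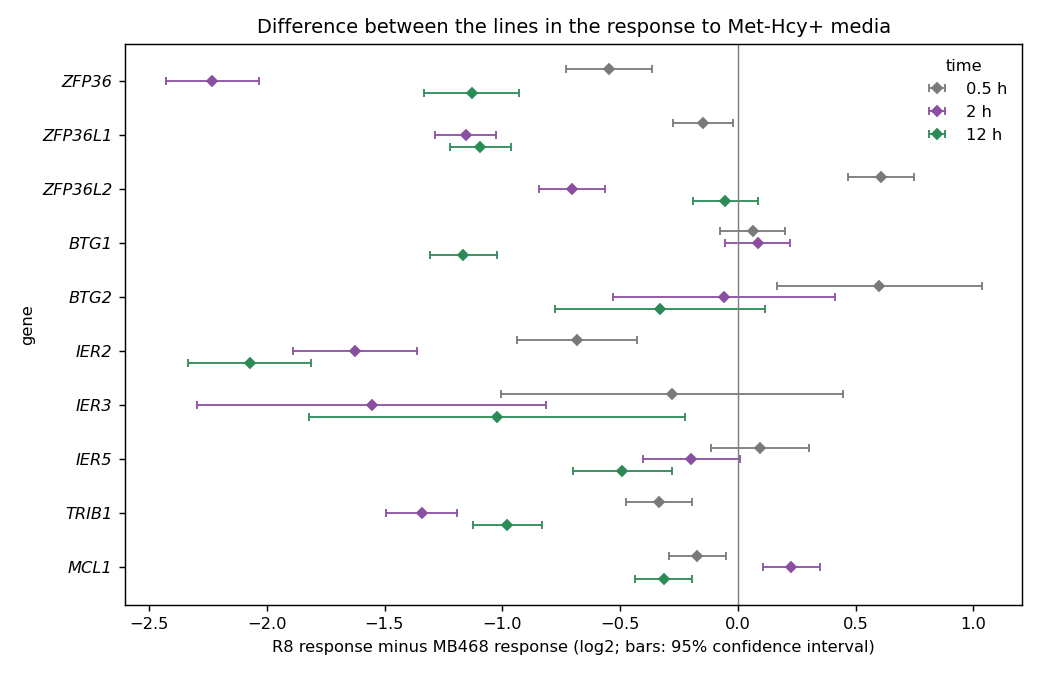
Difference between the lines in the response of each gene, R8 minus MB468 on the log2 scale with 95% confidence intervals, at 0.5 h (grey), 2 h (purple) and 12 h (green). IER2 (-2.07), BTG1 (-1.16) and ZFP36 (-1.13) lay farthest below 0 at 12 h, and ZFP36L2 lay above 0 at 0.5 h (0.61) and below 0 at 2 h (-0.70).

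Among the genes of the machinery that these decay factors recruit, TOB1 had the largest rise at 0.5 h. Of 35 genes of deadenylation and decay, all tested, 9 were called higher and 6 lower at 0.5 h in MB468 (17.6% and 16.4% of all genes), and 13 higher and 4 lower in R8 (17.4% and 16.3%), with medians of 0.04 and 0.03. The MB468 counts were near the background. TOB1, a relative of BTG1 and BTG2 that also binds the CCR4-NOT deadenylase, went from 780 ± 52.3 to 2451 ± 16.7 counts in MB468 (1.65, adjusted p = 7.22e-10) and from 1302 ± 197 to 4056 ± 427 in R8 (1.63, adjusted p = 2.74e-10; n = 3 each). The largest fall at that time in MB468 was that of EDC3, an activator of decapping (-0.70, adjusted p = 5.56e-15), which fell in R8 as well (-0.69, adjusted p = 3.53e-15). In R8 the largest fall was that of CNOT3, a CCR4-NOT subunit (from 178 ± 94.8 to 92.4 ± 24.5 counts, -0.93, adjusted p = 0.0344). The line difference at 0.5 h was not called for EDC3 (0.006, adjusted p = 0.988) or CNOT3 (-0.44, adjusted p = 0.776). At 12 h the counts were 16 higher and 12 lower in MB468 (36.1% and 34.7% of all genes) and 21 higher and 2 lower in R8 (30.2% and 31.1%). The poly(A)-binding protein PABPC4 fell in MB468 (-0.96, adjusted p = 2.11e-25) and its line difference was 1.03 (adjusted p = 9.87e-21), while that of TOB1 was -0.79 (adjusted p = 0.000249). This list and those that follow were chosen with earlier results known, and their counts were made with TMM scaling, without spike-ins. For these lists too, the MB468 2 h response and the line difference at 2 h are a description, and nothing is read from those counts.

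Transcripts known to be bound by ZFP36 proteins were counted in the same way. Of 23 listed, 18 were tested, and at 0.5 h 8 were called higher and 6 lower in MB468 (17.6% and 16.4% of all genes), and 8 higher and 7 lower in R8 (17.4% and 16.3%). DUSP1, a phosphatase that switches off MAP kinases, rose most (4.39, adjusted p = 5.81e-25, in MB468 and 4.53, adjusted p = 2.85e-25, in R8), and PLAUR, the urokinase receptor, fell most (-1.22, adjusted p = 1.14e-07, and -1.65, adjusted p = 7.50e-10). At 2 h 17 were higher in MB468 (8.88% of all genes), with a median of 1.09, given as a description. In R8 8 were higher (2.52%) and 1, VEGFA, was lower (1.85%), with a median of 0.21. The line difference at 2 h, also a description, passed the threshold below 0 for 7 of 18 (2.88%). At 12 h 7 were higher and 5 lower in MB468 (36.1% and 34.7%), with a median of -0.08, and 1 was higher and 15 lower in R8 (30.2% and 31.1%), with a median of -0.91. The cytokine LIF fell most in both lines at 12 h, from 3954 ± 5.60 to 856 ± 60.8 counts in MB468 (-2.21, adjusted p = 3.48e-10) and from 1677 ± 181 to 52.3 ± 15.3 in R8 (-5.03, adjusted p = 7.81e-12; n = 3 each). The line difference at 12 h was called negative for 14 of 18 (30.3% of all genes) and positive for 1 (26.2%), HIF1A (0.38, adjusted p = 4.22e-07).

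Most other immediate early genes were higher at 0.5 h as well. Of 39 tested, 32 were called higher and 5 lower at 0.5 h in MB468 (17.6% and 16.4% of all genes) and 30 higher and 6 lower in R8 (17.4% and 16.3%), with medians of 1.33 and 1.32. The transcription factor EGR2 rose most, from 23.3 ± 5.46 to 2042 ± 243 counts in MB468 (6.46, adjusted p = 5.51e-31) and from 23.6 ± 4.90 to 848 ± 85.8 in R8 (5.18, adjusted p = 5.88e-27; n = 3 each). At 2 h 34 were higher in MB468 (8.88%, median 1.29), given as a description. In R8 12 were higher and 8 lower at 2 h (2.52% and 1.85%, median 0.11). At 12 h 16 were higher and 14 lower in MB468, near the background of 36.1% and 34.7% (median 0.02), and 4 were higher and 31 lower in R8 (30.2% and 31.1%, median -1.28). EGR1 rose most in MB468 at 12 h (2.15, adjusted p = 9.60e-13), and the nuclear receptor NR4A3 fell most in MB468 (-3.68, adjusted p = 2.13e-05) and in R8 (-6.51, adjusted p = 2.94e-08). At 12 h the line difference was called negative for 30 and positive for 3 of the 39 (30.3% and 26.2% of all genes).

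The partners of MCL1 and TRIB1 were more mixed. Of 18 tested genes of the BCL2 family and of MCL1 turnover, 7 were higher and 3 lower at 0.5 h in MB468 (17.6% and 16.4% of all genes), and 7 higher and 2 lower in R8 (17.4% and 16.3%). Without MB468 0.5 h replicate 1, 6 were called in MB468. At 12 h 10 were higher and 6 lower in MB468 (36.1% and 34.7%), led by PMAIP1 (NOXA, the BH3-only protein that binds MCL1), which went from 434 ± 22.6 to 1046 ± 35.9 counts (1.28, adjusted p = 9.78e-18; n = 3 each). In R8 3 were higher and 5 lower at 12 h (30.2% and 31.1%), with BMF, another BH3-only gene, falling most (-1.45, adjusted p = 3.67e-13). BCL2L1 (BCL-XL) had the most negative line difference at 12 h (-1.51, adjusted p = 5.98e-20). Of the 9 genes around TRIB1, 2 were higher and 1 lower at 0.5 h in MB468 (17.6% and 16.4%) and 4 in R8 (17.4%), all higher (2 called without R8 0 h replicate 1 or R8 0.5 h replicate 2). CEBPB rose in MB468 at 12 h (1.40, adjusted p = 7.31e-14), and TRIB3, a paralog tied to amino acid stress, had a line difference of -2.05 (adjusted p = 5.33e-10) at that time.

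The course of each gene over the 24 libraries was set beside that of 9848 other genes, as log2 CPM centred within each line. The points share 8 groups, so Pearson's r is a description here. ZFP36 lay closest to JUNB (r = 0.988), DUSP1 (0.971) and FOS (0.968), and ZFP36L1 to EGR1 (0.987), MYC (0.983) and TOB1 (0.968). IER2 and TRIB1 shared PNRC1 as their closest gene (0.981 and 0.983), followed by VEGFA (0.968) and SMIM3 (0.947) for IER2 and by TOB1 (0.967) and JUNB (0.957) for TRIB1. ZFP36L2 and IER5 had other neighbours: WEE1 (0.865), NUAK2 (0.839) and PIM1 (0.811) for ZFP36L2, and NRARP (0.948), ID4 (0.941) and LGALSL (0.939) for IER5. BTG1 lay closest to CCDC64 (0.954), PSAT1 (0.951) and OPTN (0.939), and BTG2 to TTBK2 (0.928), ELF3 (0.925) and BCL6 (0.921). IER3 lay closest to PPM1H (0.920), ATP7A (0.909) and IRS2 (0.904), and MCL1 to CDC42EP4 (0.878), S1PR2 (0.849) and ITPRIP (0.840). Among the 10 genes themselves, ZFP36, ZFP36L1, IER2 and TRIB1 had pairwise r from 0.889 to 0.963, while MCL1 had r from 0.154 (BTG2) to 0.769 (IER5) with the others.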

How the data were processed

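Poly(A) RNA of MB468 and R8 cells with ERCC spike-ins was sequenced as single 100-base reads, and the authors used HISAT2 2.1.0 for alignment against GRCh38/hg38 joined to the spike-in sequences and made a table of raw counts per gene with featureCounts (Subread 1.5.3). That deposited count table is the source of every value. The strand setting and gene annotation are not given in the sources used here. The deposited table of normalized counts was not used, nor was a table of the authors' comparisons, which holds fold changes and p-values. The authors used DESeq2 and RUVSeq; RUVSeq was not used here.

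Spike-ins were set aside, genes were filtered with filterByExpr (minimum count 10), libraries were scaled by TMM and all 8 groups were fitted together in edgeR 4.0.16 (quasi-likelihood test, R 4.3.3), with Benjamini-Hochberg adjustment over 14741 genes and calls at 0.05. Symbols that occur on more than 1 row stayed separate. Normalized counts are counts scaled to a common library size, and intervals cover 95%. The procedure was tested on simulated counts. The members and lists were chosen with earlier results of these data known. The text names all 10 members and, for each member, the 3 non-members with the highest Pearson r (mean log2 CPM of at least 3). From the lists it names some of the called genes with the largest rise or fall in a comparison, not all of them. Replicate numbers were not taken as pairs: no comparison had every same-numbered pair of libraries correlated above 0.1. Alternatives were DESeq2 1.42.0 (its test and its size factors), other filters, spike-in scaling, a threshold of 0.01, only the groups compared, a replicate block and leaving out each library.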

Additional observations from a re-analysis of the deposited data

Results flagged for a closer look

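Among the 10 genes, 9 tested differences between the responses of the lines (R8 minus MB468, log2 scale) passed the test of the difference itself. At 0.5 h these were -0.55 for ZFP36, 0.61 for ZFP36L2 and -0.68 for IER2. At 12 h they were -1.13 for ZFP36, -1.16 for BTG1, -2.07 for IER2, -1.02 for IER3, -0.49 for IER5 and -0.32 for MCL1. At 0.5 h 1.7% of all genes were called negative and 1.2% positive. The 12 h background is wide, with 30.3% of all genes called negative. With spike-in scaling ZFP36 and IER2 at 0.5 h and IER3, IER5 and MCL1 at 12 h were not called. IER2 at 0.5 h also lost its call when only the groups compared were fitted. All are described above.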

How the results depend on the processing

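The 10 genes gave 100 values over the 10 comparisons. The replicate block left all 100 on the same side of the threshold, with 8 members called in MB468 at 0.5 h as in the unpaired fit, and changed no other count of members. DESeq2, its size factors and the fit without the low-count filter each kept 99, the fit with only the groups compared kept 96, and the threshold of 0.01 kept 94. IER3 did not pass the filter of at least 10 counts in every library. Scaling by spike-in totals had the largest effect. It kept 56 of the 100, while 15 values without a call moved by more than their standard error. Among values that kept their sign, it took 17 of the 100 out of their call and brought 4 in. A further 8 were reversed. At 0 h, in R8 against MB468, these were ZFP36 (-0.10), ZFP36L1 (-0.29), ZFP36L2 (-0.020) and TRIB1 (-0.14). In MB468 they were BTG1 (-0.18) and MCL1 (-0.16) at 2 h, and ZFP36 (-0.048) and MCL1 (-0.015) at 12 h. Of the reversed values only ZFP36L1 was called with spike-in scaling, and the others lost their call. Spike-in scaling left 1 member called (4 in the main comparison) for the line difference at 0.5 h and 5 (8) at 12 h. The share of all genes called with spike-in scaling was not counted. The median of all genes moved under it by -0.31 at 0 h, by -0.20, -0.42 and -0.23 in MB468 at 0.5, 2 and 12 h, and in R8 by at most 0.04. Whether spike-in amounts followed cell number was not tested. Leaving out single libraries gave 780 values, of which 740 kept their call, 20 lost it, 8 gained it, 12 values without a call moved by more than their standard error and none reversed. The number of members called then ran from 5 to 7 for the lines at 0 h, from 8 to 8, 9 to 9 and 6 to 7 in MB468 at 0.5, 2 and 12 h, from 8 to 9, 4 to 4 and 6 to 9 in R8, and from 4 to 5, 5 to 7 and 7 to 8 for the line differences. Of the counts of listed genes given above, spike-in scaling moved those called of the decay machinery from 28 to 17 in MB468 at 12 h, from 17 to 10 in R8 at 0.5 h and from 23 to 15 in R8 at 12 h. It moved the ZFP36-bound transcripts from 9 to 5 in R8 at 2 h, the BCL2 list from 16 to 10 in MB468 at 12 h and from 9 to 4 and 8 to 4 in R8 at 0.5 and 12 h, the other immediate early genes from 20 to 12 in R8 at 2 h, and the genes around TRIB1 from 4 to 2 in R8 at 0.5 h. Without the low-count filter the 2 h line difference was called for 11 ZFP36-bound transcripts in place of 7. The threshold of 0.01 left 6 of 10 for the BCL2 list in MB468 at 0.5 h and 2 of 4 around TRIB1 in R8 at 0.5 h. Low counts limit IER3 and BTG2.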
